A study of Mus musculus with 11 samples.

Results

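The Hox genes are the 4 clusters of homeobox genes that record position along the body axis. All genes of the deposited count table whose symbol is Hox, a cluster letter from a to d, and a number were taken, which gave 38 of the 28284 genes listed: 11 of the A cluster, 10 of the B cluster, 9 of the C cluster, and 8 of the D cluster. Hoxd12 was not analysed here. A member was called active in a line at 1 CPM or more, where CPM is the count divided by the library total and scaled to 1000000. By this measure 12 members were active in all 11 lines, 23 in some of them, and 3 (Hoxb1, Hoxd1, and Hoxd3) in none.

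Hox proteins are transcription factors, and each cluster is read in order along the chromosome. Genes at the 3′ end, with low numbers, are used toward the head, and genes at the 5′ end, with high numbers, toward the tail and the limb tips. Genes of the same number in different clusters form a paralog group. Adult tissues and cells grown from them keep much of their Hox pattern, which makes the most 5′ active gene a readout of body position. In the Müllerian duct, which forms the female reproductive tract, the A cluster marks successive parts: Hoxa9 the oviduct, Hoxa10 the uterus, Hoxa11 the uterus and cervix, and Hoxa13 the upper vagina.

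The 11 lines came from tumor-bearing female mice heterozygous for the Ovgp1-Trp53-R270H-Myc transgene, on a C57BL/6J background and placed at the endogenous Trp53 locus. In it, the promoter of Ovgp1, an oviduct glycoprotein gene, drives dominant-negative p53 and Myc, with a 3×HA tag, joined by a P2A peptide. ROV and LOV stand for the right and left ovary, from which 7 lines came (F318 LOV, F318 ROV, F364 LOV, F364 ROV, F319 ROV, F326 ROV, and F339 ROV). The others were 2 from a uterus (F319 uterus and F333 uterus), 1 from a tumor of the spleen (F326), and 1 from a tumor of the peritoneum (F361). They came from 7 mice of unstated single ages, had no treatment, and gave 1 library each. The ovary was excised together with its fallopian tube, and the uterus at its mid-section, so an ovary line may hold cells of either organ. The F361 line was described as no longer expressing mutant p53. Cells without the transgene were not analysed here.

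The libraries held between 13580525 and 27044598 counts, and 3 counts, taken as the floor of detection, equaled 0.111 to 0.221 CPM. Libraries 1 to 7 stood apart from libraries 8 to 11. Genes of adult muscle fibers took 8.2% to 15.8% of the counts in libraries 1 to 7 and 0.175% to 1.36% in libraries 8 to 11, and 4 Y-linked genes summed to 128 to 174 CPM in the first set and 1.75 to 19.2 CPM in the second, although all mice were female. Both uterus lines and 2 of the 7 ovary lines (F339 ROV and F318 LOV) were in libraries 8 to 11, so organ and library set overlapped in part. The Hox genes are therefore compared between uterus and ovary over all 9 lines and also within libraries 8 to 11. All lines were labelled as ovarian cancer. Of the epithelial markers, Pax8, a Müllerian transcription factor, lay between 0.0 and 3.05 CPM and Ovgp1 itself between 0.83 and 6.52 CPM. Epcam, Cdh1, Muc1, and Wfdc2 were at 3.68 CPM or less in all lines. Krt18, Krt8, and Krt19 reached 67.9, 52.7, and 21.7 CPM in F319 ROV. Krt7 was at 16.6 and 40.5 CPM in the F319 and F333 uterus lines, against 12.0 CPM or less in the ovary lines. The sum of 10 epithelial markers was 6.41 to 164 CPM, highest in F319 ROV, and that of 10 mesenchymal markers 980 to 23570 CPM. In bulk RNA, fewer cells of a type and less RNA per cell cannot be told apart.

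**Figure D1:**
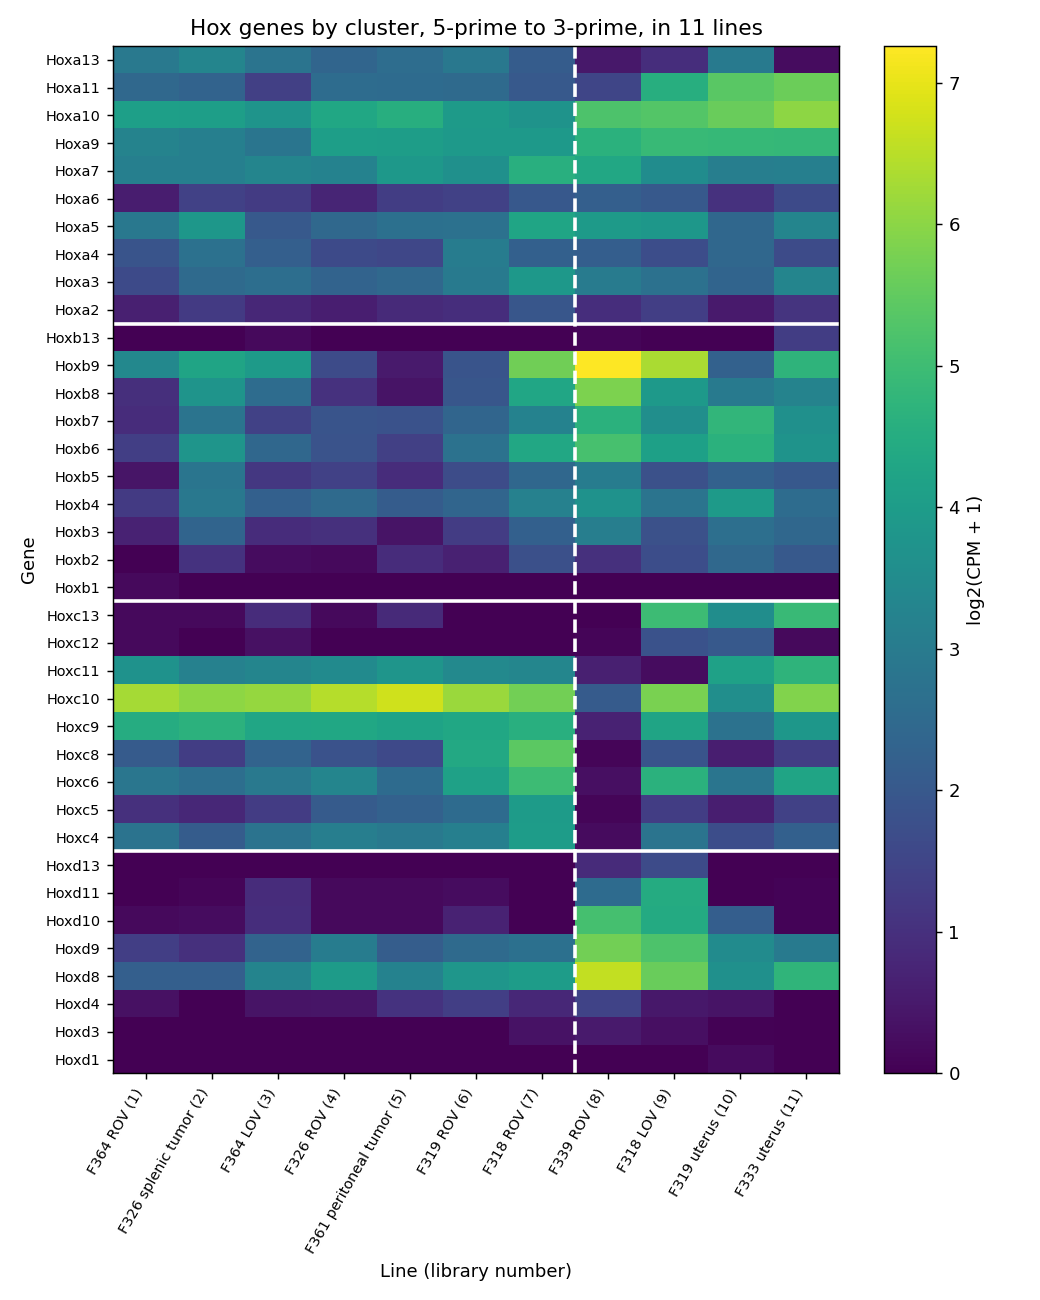
Level of 37 members (rows, ordered within each cluster from 5′ to 3′) in each of the 11 lines (columns, with library number), as log2(CPM + 1) by color, with solid lines between clusters and a dashed line between libraries 7 and 8. Hoxc10 is the brightest row in libraries 1 to 7 (51.9 to 105 CPM), the C cluster is dark in F339 ROV, and Hoxd10 and Hoxd11 are brightest in F339 ROV and F318 LOV.

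All 4 clusters were used in the 11 lines, with the level summed over members between 203.5 CPM in F364 ROV and 607 CPM in F339 ROV. Between 20 members (F364 ROV) and 31 members (F318 LOV) were active. Paralog groups 9 to 13, the posterior genes, held 41.0% (95% Wilson interval 39.9% to 42.1%) to 77.1% (75.6% to 78.6%) of the Hox counts, the lowest share in F318 ROV and the highest in F364 ROV. Without group 9 the share was 13.5% in F339 ROV to 59.7% in the peritoneal line. The uterus lines had shares of 58.7% and 69.5%, within the range of the ovary lines. Of the members active in every line, 7 were of the A cluster, 2 of the B cluster, 2 of the D cluster (Hoxd8 and Hoxd9), and 1 of the C cluster (Hoxc10). Wilson intervals cover counting error only. Between 71.9% and 79.6% of the counts from 1 to 20 were even numbers, as when both mates of a pair are counted, so these intervals are too narrow.

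Corrected for length, the leading member was the same gene in most lines. Hoxc10, a posterior gene of the limb and caudal trunk, was the highest of all members per kilobase of exons in 8 lines, at 27.2 to 54.9 CPM per kilobase. Those 8 were the 7 lines of libraries 1 to 7 and the F333 uterus line. Hoxb9, the most 5′ B cluster gene of the trunk, led in F339 ROV at 59.2 CPM per kilobase and in F318 LOV at 30.8 CPM per kilobase. Hoxa11 led in the F319 uterus line at 18.2 CPM per kilobase, just ahead of Hoxb7 at 17.1 CPM per kilobase.

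The A cluster lies on chromosome 6 of GRCm38, and its 11 members were found in every line. Its most 5′ active gene was Hoxa13, the A cluster gene of the caudal end, in 8 lines and Hoxa11 in the other 3. Hoxa13 was at 6.60 CPM in F364 ROV, 5.89 CPM in F364 LOV, 4.21 CPM in F326 ROV, 6.49 CPM in F319 ROV, and 3.31 CPM in F318 ROV, and at 8.80 CPM in the splenic line and 5.01 CPM in the peritoneal line. It was at 7.03 CPM in the F319 uterus line. In F339 ROV it was at 0.392 CPM, in F318 LOV at 0.917 CPM, and in the F333 uterus line at 0.186 CPM. All lines of libraries 1 to 7 thus lay above both ovary lines of libraries 8 and 9, and the 2 uterus lines lay far apart.

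Hoxa11 and Hoxa10, the A cluster genes of the uterus, were highest in the 2 uterus lines. Hoxa11 (chr6:52242106-52245810, minus strand) was at 41.7 CPM in the F319 uterus line and 48.1 CPM in the F333 uterus line. Among ovary lines it was at 4.44 CPM in F364 ROV, 1.58 CPM in F364 LOV, 4.87 CPM in F326 ROV, 4.66 CPM in F319 ROV, 3.08 CPM in F318 ROV, 1.84 CPM in F339 ROV, and 22.4 CPM in F318 LOV. The groups did not overlap, and F318 LOV was the ovary line nearest to the uterus lines. The splenic line was at 3.99 CPM and the peritoneal line at 4.86 CPM. An exon of Hoxa11 is shared on the other strand with the noncoding Hoxa11os, which was at 12.2 and 8.03 CPM in the lines from uterus against 0.235 to 3.27 CPM in the ovary lines. The strand setting of the counting was not given in the sources used here, so reads of this pair cannot be told apart.

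Hoxa10 was at 47.5 and 64.3 CPM in the lines from uterus and between 12.4 and 39.2 CPM, with a median of 16.2 CPM, in the ovary lines. Here too the groups did not overlap, and the highest ovary lines were F318 LOV at 39.2 CPM and F339 ROV at 36.5 CPM. Hoxa9, the oviduct gene of the series, did not follow this pattern. It was at 27.95 and 27.6 CPM in the lines from uterus, at 23.9 and 28.9 CPM in F339 ROV and F318 LOV, and at 6.14 to 15.9 CPM in the 5 other ovary lines. For mouse F319, which gave an ovary and a uterus line, the uterus line held more Hoxa11 (41.7 against 4.66 CPM) and Hoxa10 (47.5 against 14.6 CPM), and a similar level of Hoxa13 (7.03 against 6.49 CPM). These 2 libraries belong to different library sets.

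The promoter of Hoxa11, the member with the largest positive difference between the uterus and the ovary lines over all 9 lines, is shown from 250 bases before to 50 bases after the start, from RefSeq on GRCm38.p6, at chr6:52245761-52246060 on the minus strand. The table of promoters held 23 promoters of 21 members, among 32851 in all. The window of Hoxa11 contained 15 CG pairs, against a median of 15 in the promoters of members and 7 in all promoters. No letters are in capitals, because neither CACGTG nor a TATA or CCAAT box was found in it on either strand.
Hoxa11: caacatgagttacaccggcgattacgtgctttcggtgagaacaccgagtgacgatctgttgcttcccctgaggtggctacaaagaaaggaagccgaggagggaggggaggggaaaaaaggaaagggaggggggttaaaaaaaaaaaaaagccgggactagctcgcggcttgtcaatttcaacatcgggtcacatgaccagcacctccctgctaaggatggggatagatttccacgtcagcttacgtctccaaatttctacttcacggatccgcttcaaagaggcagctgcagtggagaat

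Toward the 3′ end of the A cluster, Hoxa7, Hoxa5, Hoxa4, and Hoxa3, which pattern the trunk and neck, were active in every line with highest levels of 23.1, 18.1, 7.34, and 13.7 CPM. Hoxa6 was active in 9 lines and Hoxa2, a hindbrain gene, in 4. The counts of Hoxa3 and Hoxa2, which share exons on the same strand with the gene model Gm28308, are uncertain, as are those of Hoxa7, Hoxa4, and Hoxa3, which overlap exons of genes on the other strand.

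The B cluster lies on chromosome 11 of GRCm38 and had Hoxb9 as its most 5′ active gene in 9 lines. Hoxb9 was at 9.45 CPM in F364 ROV, 14.6 CPM in F364 LOV, 2.14 CPM in F326 ROV, 2.69 CPM in F319 ROV, 50.2 CPM in F318 ROV, 152 CPM in F339 ROV, and 79.2 CPM in F318 LOV. The uterus lines were at 3.77 and 25.4 CPM and the splenic line at 18.0 CPM. Levels differed widely within each organ, and the uterus lines lay within the ovary range. The 2 exceptions were the peritoneal F361 line, in which Hoxb9 was at 0.442 CPM and Hoxb7 at 2.58 CPM was the most 5′ active gene, and the F333 uterus line. In the latter Hoxb13, a gene of the tail bud and of the lower urogenital tract, reached 1.49 CPM (95% Wilson interval 1.05 to 2.10 CPM). In the other lines Hoxb13 lay at 0.0 to 0.127 CPM, at or under the floor.

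The summed B cluster level was 295 CPM in F339 ROV and 134 CPM in F318 LOV, against 10.3 CPM in the peritoneal line at the low end. F339 ROV had the highest level of the 11 lines for 5 of the 10 B members. Hoxb7, a trunk gene, was at 24.1 and 11 CPM in F339 ROV and F318 LOV, at 0.888 to 8.39 CPM in the 5 other ovary lines, and at 26.4 and 11.5 CPM in the lines from uterus. Hoxb2, an anterior gene of the hindbrain, was at 4.47 and 3.06 CPM in the lines from uterus. In the ovary lines it lay between 0.0 and 2.40 CPM with a median of 0.582 CPM, so both uterus lines were above all ovary lines. An exon of Hoxb2 is shared on the other strand with the noncoding Hoxb3os, which was at 1.04 and 1.07 CPM in the lines from uterus and at most 0.588 CPM in the ovary lines, so the reads of this pair cannot be told apart either. Hoxb1 had 2 counts in a single line, F364 ROV, and 0 in the other 10.

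**Figure D2:**
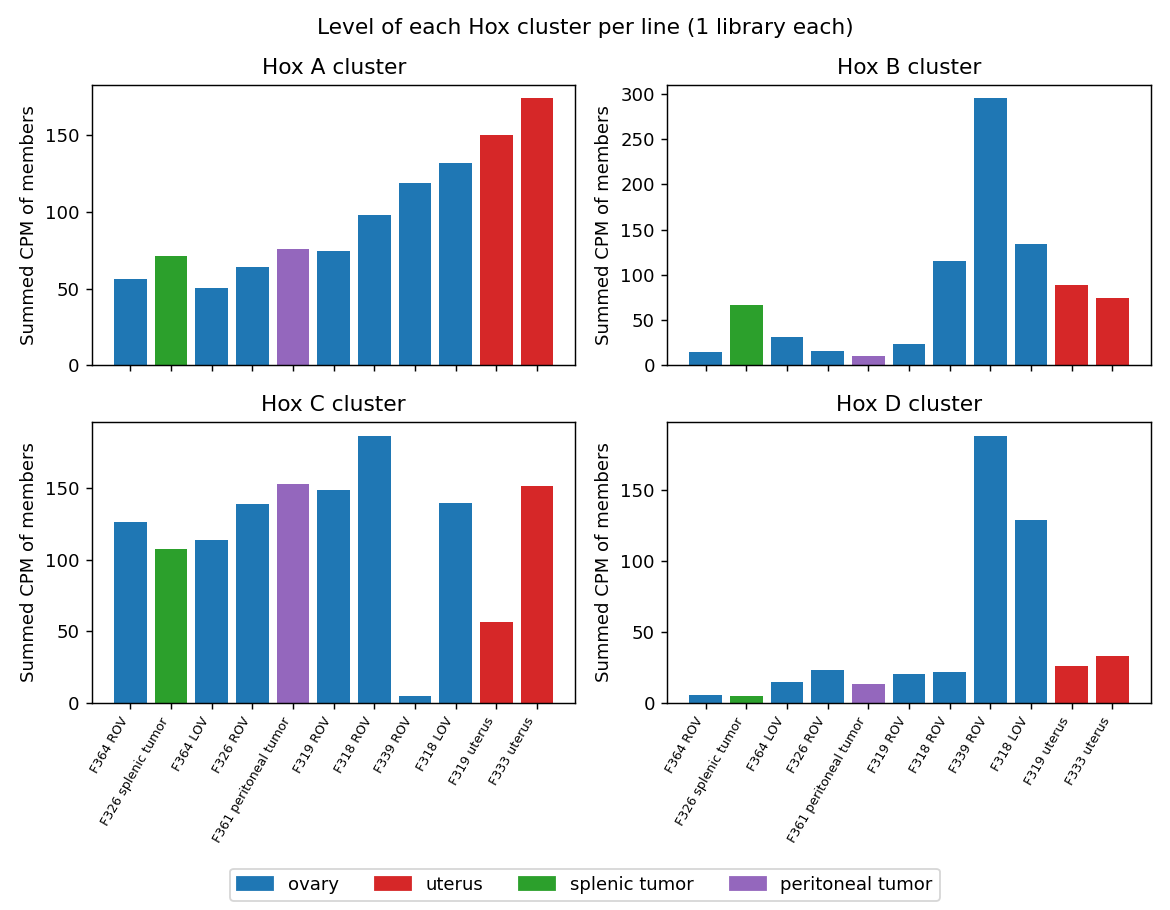
Summed level of the members of each cluster in CPM (bars from 0, 1 library per line, so no error bars), colored by the organ of origin. The A cluster is highest in the 2 uterus lines (150 and 174 CPM), the C cluster is at 5.02 CPM in F339 ROV, and the D cluster reaches 188 CPM in F339 ROV and 129 CPM in F318 LOV against at most 32.9 CPM elsewhere.

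The C cluster, on chromosome 15 of GRCm38, held the largest share of the Hox counts in all lines of libraries 1 to 7, at 42.8% to 62.2%. It had 3 different most 5′ active genes. In the 7 lines of libraries 1 to 7 this was Hoxc11, at 8.16 to 12.7 CPM. In F318 LOV and the 2 uterus lines it was Hoxc13, the gene of the tail tip, hair, and nails, and in F339 ROV it was Hoxc10. Hoxc13 was at 30.7 CPM in F318 LOV, 10.9 CPM in the F319 uterus line, and 29.5 CPM in the F333 uterus line. It was at 0.886 CPM in F364 LOV, 0.810 CPM in the peritoneal line, 0.0 CPM in F319 ROV, F318 ROV, and F339 ROV, and no more than 0.134 CPM in the remaining 3. The 2 ovary lines of mouse F318 differed here, with 30.7 CPM in the left and 0.0 CPM in the right.

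Hoxc11, a gene of the caudal trunk and hindlimb, was at 16.7 and 25.3 CPM in the lines from uterus. Among ovary lines it was at 11.9 CPM in F364 ROV, 8.80 CPM in F364 LOV, 10.2 CPM in F326 ROV, 9.63 CPM in F319 ROV, and 9.08 CPM in F318 ROV, but at 0.549 CPM in F339 ROV and 0.175 CPM in F318 LOV. Both uterus lines lay above all ovary lines, and the 2 ovary lines of libraries 8 and 9 lay far below the others. In F318 LOV the gene was therefore low between active neighbors, with Hoxc13 at 30.7 CPM on one side and Hoxc10 at 54.2 CPM on the other. Hoxc12 was at 2.53 CPM in F318 LOV and 3.07 CPM in the F319 uterus line, and at 0.253 CPM or less elsewhere.

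In F339 ROV the C cluster was at its lowest of all lines. Its members summed to 5.02 CPM, or 0.827% of the Hox counts, against 56.8 to 187 CPM in the other lines. Hoxc10 was at 3.22 CPM (95% Wilson interval 2.59 to 3.99 CPM) against 11.02 to 105 CPM, Hoxc9 at 0.627 CPM against 5.69 to 24.4 CPM, and Hoxc6 at 0.235 CPM against 4.86 to 30.8 CPM. Of the 9 members, 6 were lower in F339 ROV than in all 10 other lines. The 10 nearest genes with a mean of at least 1 CPM, 5 on each side of the cluster, did not share this. Their median log2 ratio of F339 ROV to the median of the other lines was 1.10 (range −1.10 to 2.35), against −2.57 for the 9 members. The neighbors were also raised in F318 LOV, the F319 uterus line, and the F333 uterus line, at 1.36, 1.69, and 0.743. The 9 members were at 0.023, −0.764, and 0.113 in these lines. This set of neighbors was chosen after the levels were seen, and the cause of the low level was not tested. The share of muscle fiber counts was 1.11% in F339 ROV. In the other lines of libraries 8 to 11 it was 0.175% in F318 LOV, 1.36% in the F333 uterus line, and 0.743% in the F319 uterus line, which had C cluster levels of 140, 152, and 56.8 CPM.

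At the other end of the range, Hoxc8, a gene of the thoracic trunk, was at 42.1 CPM in F318 ROV and 19.7 CPM in F319 ROV. The other lines lay between 0.0784 and 3.99 CPM. F318 ROV also had the highest levels of Hoxc6 (30.8 CPM), Hoxc5 (14.8 CPM), and Hoxc4 (15.3 CPM). An exon of Hoxc5 is shared with Hoxc10 on the same strand in the annotation, so their counts could be split or lost.

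**Figure D3:**
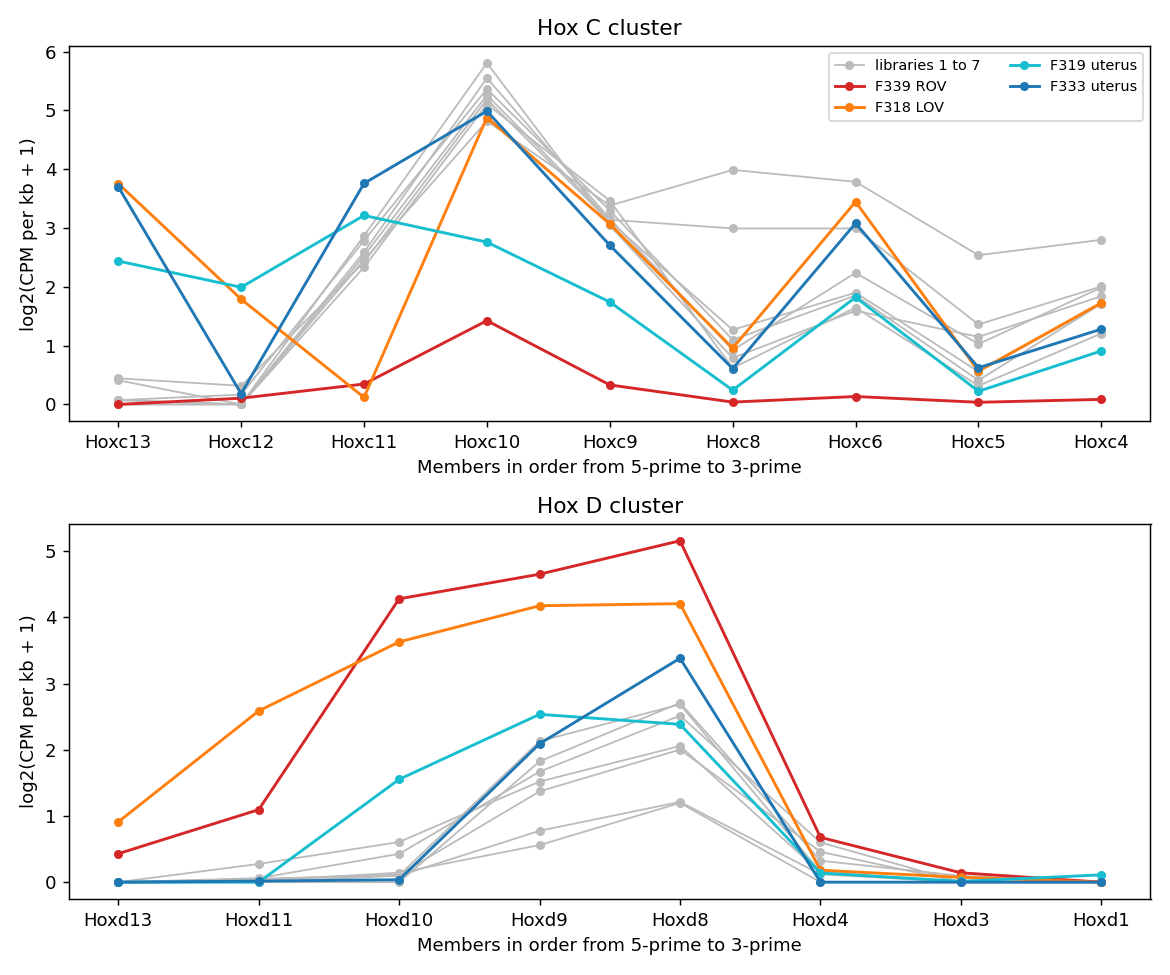
Level per length, as log2(CPM per kilobase of exons + 1), of the C cluster members (top) and D cluster members (bottom), ordered from 5′ to 3′, with 1 line for each of the 11 cell lines. F339 ROV is the lowest line at 6 of the 9 C cluster members and highest at Hoxd8, Hoxd9, and Hoxd10 in the D cluster, while the uterus lines end at Hoxc13 in the C cluster and at Hoxd10 or Hoxd9 in the D cluster.

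The D cluster lies on chromosome 2 of GRCm38. Its most 5′ active gene was Hoxd9 in 8 lines, Hoxd10 in the F319 uterus line, Hoxd11 in F339 ROV, and Hoxd13 in F318 LOV. These posterior D genes pattern the lower spine, the limbs, and the urogenital tract. Hoxd13 was at 2.18 CPM (95% Wilson interval 1.66 to 2.88 CPM) in F318 LOV and 0.863 CPM (0.570 to 1.31 CPM) in F339 ROV. It had no count in any of the other 9 lines.

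Hoxd11 was at 21.1 CPM in F318 LOV and 4.78 CPM in F339 ROV, at 0.0 to 0.886 CPM in the other ovary lines, and at 0.0 and 0.0464 CPM in the lines from uterus. Hoxd10 was at 33.5 CPM in F339 ROV and 20.6 CPM in F318 LOV, at 0.0 to 0.949 CPM in the other ovary lines, at 3.51 CPM in the F319 uterus line, and at 0.0464 CPM in the F333 uterus line. Hoxd10 and Hoxd11 share exons on the same strand with the gene model Gm28309, so their counts are uncertain. The genes next to them toward the 3′ end were on in every line. Hoxd9 was at 51.5 and 36.4 CPM in F339 ROV and F318 LOV against 1.52 to 7.21 CPM in the other ovary lines and 10.2 and 6.96 CPM in the lines from uterus. Hoxd8 was at 95.1 and 47.9 CPM in F339 ROV and F318 LOV, at 3.62 to 15.2 CPM in the other ovary lines, and at 11.6 and 25.9 CPM in the lines from uterus. Hoxd4, which shares exons with Hoxd3, lay at 1.76 CPM or less in all lines, Hoxd3 at 0.431 CPM or less, and Hoxd1 at 0.148 CPM or less.

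The promoters of Hoxd13, Hoxd11, and Hoxd10 are shown because these 3 genes were active together in F318 LOV. In F339 ROV, Hoxd13 was at 0.863 CPM, under the threshold. Capitals mark CACGTG, the E-box bound by Myc with Max and by other factors of that family. It was searched on both strands, where it reads the same. It was found in 7.15% of all 32851 promoters and in 5 of the 23 promoters of members, all 5 of them among the 9 promoters of D members (Hoxd13, Hoxd11, Hoxd10, Hoxd4, and Hoxd1). Hoxd4, at 1.76 CPM or less in all lines and active in 3, and Hoxd1, at 0.148 CPM or less, carried it too. It was not found in promoters of Hoxd8 and Hoxd9, the D members with the highest levels in F339 ROV and F318 LOV. Hoxd3 lacked it as well. The part of this motif in the levels was not tested. The E-box began 229 bases before the start in Hoxd13, 96 bases before it in Hoxd11, and 73 bases before it in Hoxd10. A match is a description of these letters and not a binding site. The windows are at chr2:74667975-74668274, chr2:74682073-74682372, and chr2:74691641-74691940, on the plus strand of GRCm38.p6, from RefSeq.
Hoxd13: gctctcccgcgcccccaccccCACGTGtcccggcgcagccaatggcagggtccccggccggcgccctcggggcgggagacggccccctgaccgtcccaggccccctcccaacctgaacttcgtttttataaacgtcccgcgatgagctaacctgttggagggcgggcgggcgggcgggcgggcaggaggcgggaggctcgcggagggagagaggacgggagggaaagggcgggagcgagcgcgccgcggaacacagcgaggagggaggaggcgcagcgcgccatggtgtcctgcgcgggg
Hoxd11: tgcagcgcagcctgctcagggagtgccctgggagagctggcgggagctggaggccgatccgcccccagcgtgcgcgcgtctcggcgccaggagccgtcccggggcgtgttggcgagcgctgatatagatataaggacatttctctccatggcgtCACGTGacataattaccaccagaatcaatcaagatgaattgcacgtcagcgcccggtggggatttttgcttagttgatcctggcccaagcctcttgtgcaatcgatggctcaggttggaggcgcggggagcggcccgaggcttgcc
Hoxd10: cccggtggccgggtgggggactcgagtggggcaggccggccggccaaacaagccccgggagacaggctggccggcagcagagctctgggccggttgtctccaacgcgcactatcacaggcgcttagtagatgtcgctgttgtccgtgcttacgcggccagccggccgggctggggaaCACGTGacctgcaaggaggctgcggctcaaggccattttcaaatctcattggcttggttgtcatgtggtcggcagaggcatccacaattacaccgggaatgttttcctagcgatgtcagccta

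Other motifs were searched on both strands of the same windows. The Pbx and Hox site TGATNNAT was found in 8.85% of all promoters and in 4 of the 23 promoters of members. The homeodomain palindrome TAATTA was found in 5.29% of all and in 2 of members, and the Cdx-type site TTTATNG in 10.9% and 2. The TATA box, searched as TATAAA, was found in 13.6% and 4, and the CCAAT box in 37.4% and 14.

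Within a paralog group, the lines used different clusters. In group 11, per kilobase of exons, Hoxc11 held 69.6% to 82.8% of the group's level in libraries 1 to 7, with the rest mostly on Hoxa11. In the uterus lines Hoxa11 held 68.8% and 62.7%, Hoxc11 31.2% and 37.3%, and Hoxd11 at most 0.0328%. In F318 LOV Hoxa11 held 65.7% and Hoxd11 33.7%, and in F339 ROV Hoxd11 held 51.3%. In group 10, Hoxc10 held 87.1% to 89.1% in libraries 1 to 7. Hoxa10 led with 65.3% in the F319 uterus line, Hoxc10 with 60.9% in the F333 uterus line, and Hoxd10 with 58.9% in F339 ROV. In group 13 the level was on Hoxa13 in libraries 1 to 7 (85.1% to 100%), and mostly on Hoxc13 in F318 LOV (90.9%), the F333 uterus line (94.1%), and the F319 uterus line (60.9%).

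**Figure D4:**
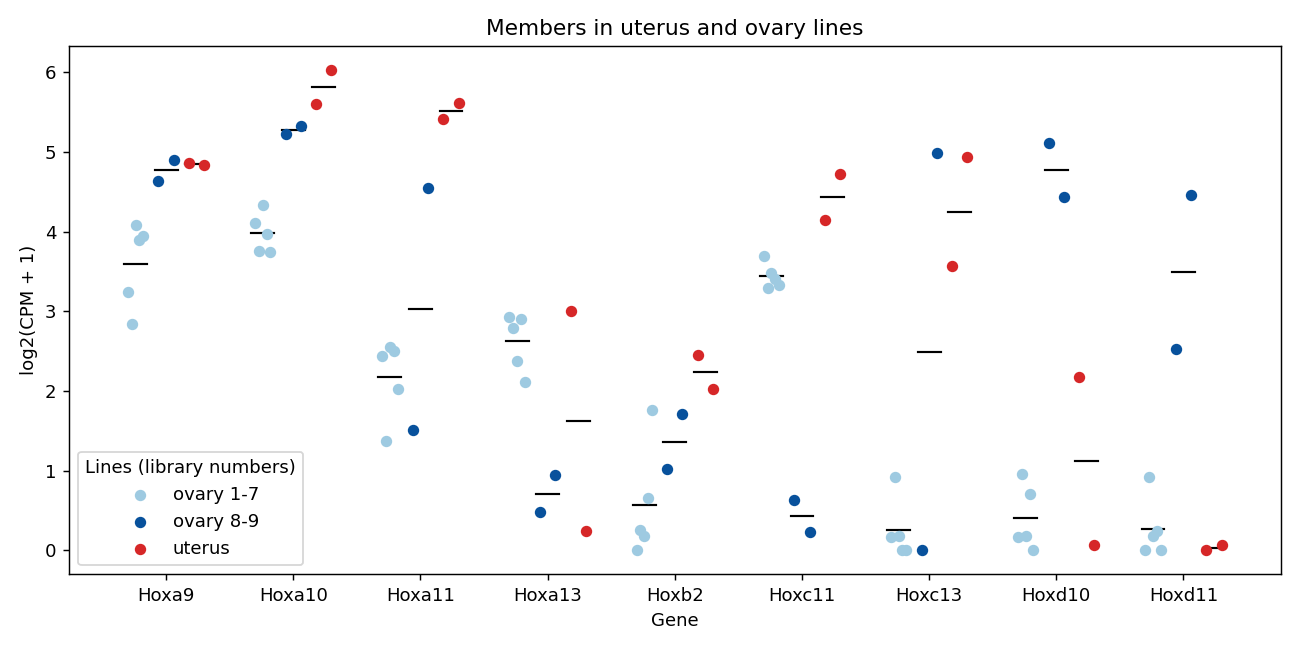
Level of 9 members as log2(CPM + 1) in the 5 ovary lines of libraries 1 to 7 (light blue), the 2 ovary lines of libraries 8 and 9 (dark blue), and the 2 uterus lines (red), with 1 point per line and a bar at the mean. Both uterus lines lie above every ovary line for Hoxa10, Hoxa11, Hoxb2, and Hoxc11, while Hoxd10 and Hoxd11 are highest in the 2 ovary lines of libraries 8 and 9.

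The comparison of the 2 uterus lines with the 7 ovary lines asked whether the organ of origin showed in the Hox genes. Hoxa11 had the largest positive difference and Hoxd11 the largest negative one, but no member passed the test. With edgeR's quasi-likelihood test and Benjamini-Hochberg adjustment over the 17446 genes tested, 0 genes were called (0.0%), and 2308 genes (13.2%) had an unadjusted p under 0.05. Of the 38 members 34 passed the filter on low counts. Hoxb1, Hoxb13, Hoxd1, and Hoxd3 did not. The difference was positive for 13 and negative for 21, with a median log2 fold change of −0.46 against −0.05 over all genes tested. With the library set as a covariate over the same 9 lines, 18 were positive, the median was 0.02, and again 0 genes were called. An unadjusted p under 0.05 was found for 2 members: Hoxa11, with a log2 fold change of 2.78 ± 0.75 (SE) and an adjusted p of 0.359 in edgeR, and Hoxa10, with 1.27 ± 0.41 and 0.359. Both were higher in 2 of 2 uterus lines than in all 7 ovary lines.

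Both uterus lines lay above every ovary line for 4 members (Hoxa10, Hoxa11, Hoxb2, and Hoxc11), where 5.04% of all genes tested did, and below every ovary line for 0 members, where 3.0% of all genes did. The other large positive log2 fold changes were 2.22 ± 2.16 (SE) for Hoxc13, 1.92 ± 1.12 for Hoxb2, 1.76 ± 1.69 for Hoxc12, and 1.28 ± 1.13 for Hoxc11. Hoxc12 was at 3.07 CPM in the F319 uterus line and 0.139 CPM in the F333 uterus line, and its log2 fold change turned to −1.52 without the former. The large negative ones were −7.06 ± 3.47 for Hoxd11, −3.51 ± 1.90 for Hoxc8, −2.47 ± 1.25 for Hoxd4, and −2.20 ± 2.52 for Hoxd10. Single lines moved these values. Hoxd11 ranged from −9.17 to −5.20 and Hoxc8 from −4.57 to −2.60 with 1 line left out. Hoxd4 was at −6.90 without the F319 uterus line and −1.55 without the F333 uterus line, and Hoxd10 at −7.08 without the F319 uterus line and −1.15 without F339 ROV. Hoxc13 ranged from 1.19 (without the F333 uterus line) to 6.46 (without F318 LOV). Hoxd13 was at 0 in both uterus lines, which put it at least 8.65-fold lower there, from a floor of 3 counts over the group. The sign was negative for the 6 tested D members, of which Hoxd4, Hoxd11, and Hoxd13 passed the filter only through ovary lines. The values above place the ovary levels of Hoxd10, Hoxd11, and Hoxd13 in F339 ROV and F318 LOV. In the 1 mouse with both organs, F319, Hoxd10 and Hoxd9 went the other way, at 3.51 and 10.2 CPM in the uterus line and 0.627 and 4.66 CPM in the ovary line, which were in different library sets. With mouse as a replicate block, Hoxd10 was at 2.20 and Hoxd9 at 0.86. DESeq2, run as an alternative, called 1315 of 18122 genes and 2 of 34 members. These were Hoxa11 (log2 fold change 3.09, adjusted p 0.00212 in DESeq2) and Hoxd11 (−7.40, adjusted p 0.0441).

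Within libraries 8 to 11 the 2 uterus lines could be set against F339 ROV and F318 LOV, at low muscle fiber content on both sides. Hoxc11 had the largest positive and Hoxd11 the largest negative log2 fold change, but the test again called 0 of 15566 genes (0.0%), with 522 genes (3.35%) at an unadjusted p under 0.05. Of the 33 members that passed the filter, 8 had an unadjusted p under 0.05 (Hoxb8, Hoxb9, Hoxc11, Hoxd8, Hoxd9, Hoxd10, Hoxd11, and Hoxd13), and the lowest adjusted p was 1. Both uterus lines were above both ovary lines for 4 members, the same Hoxa10, Hoxa11, Hoxb2, and Hoxc11, where 12.3% of all genes were. They were below for 10 members (Hoxa5, Hoxa6, Hoxa7, Hoxb8, Hoxb9, Hoxd8, Hoxd9, Hoxd10, Hoxd11, and Hoxd13), where 14.1% of all genes were. The 2 uterus lines are the same in both comparisons, as are these 2 ovary lines, so the comparisons are not independent.

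The largest positive log2 fold change within libraries 8 to 11 was 5.87 ± 0.82 (SE) for Hoxc11, with an unadjusted edgeR p of 0.000717 and an adjusted p of 1. In the D cluster the log2 fold change was −1.88 ± 0.61 for Hoxd8, −2.35 ± 0.41 for Hoxd9, −3.98 ± 1.56 for Hoxd10, and −8.94 ± 1.5 for Hoxd11, and Hoxd13 was at least 24.1-fold lower in the uterus lines. Hoxc11 passed the filter only with the uterus lines, where it was high, and Hoxd11 and Hoxd13 only through the ovary lines. Hoxd1, Hoxd3, and Hoxd4 did not pass it. The signs and the counts of members above or below both ovary lines are therefore partly set by the filter. Hoxb9 and Hoxb8 had log2 fold changes of −2.90 ± 1.0 and −2.14 ± 0.74. Hoxa11 was at 1.90 ± 1.11 and Hoxa10 at 0.59 ± 0.36 in this comparison. With 1 line left out Hoxa11 ranged from 0.996 (without F339 ROV) to 4.65 (without F318 LOV), Hoxa10 from 0.24 (without the F333 uterus line) to 0.87 (without the F319 uterus line), and Hoxd10 from −8.92 to −3.02. DESeq2 called 138 of 16036 genes and 4 of 35 members here. Hoxc11, with 14 and 4 counts in F339 ROV and F318 LOV, was higher in the uterus lines (adjusted p 1.44e-11 in DESeq2). Hoxd9, Hoxd11, and Hoxd13 were lower (adjusted p 0.000359 in DESeq2 for Hoxd9).

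Since 2 ovary lines carried library numbers of the second set, the ovary lines were also compared among themselves, F339 ROV and F318 LOV against the 5 of libraries 1 to 7. Hoxd8, Hoxd9, and Hoxd10 of the D cluster were called higher in F339 ROV and F318 LOV, and Hoxa13 and Hoxc11, the most 5′ active genes of libraries 1 to 7, were called lower. Of the 16610 genes tested 6757 were called (40.7%), 3091 higher (18.6%) and 3666 lower (22.1%). Of the 33 members that passed the filter 11 were called, 9 higher and 2 lower, and their median log2 fold change was 0.89 against −0.01 over all genes. These counts are a description, since Hoxd11 and Hoxd13 passed the filter only through F339 ROV and F318 LOV, where they were high. Hoxa13 and Hoxc11 passed it only with libraries 1 to 7, where they were high, and Hoxd1 and Hoxd3, low in all lines, did not pass it. Between these groups, 40 of 43 tested muscle fiber genes and all 4 Y-linked genes were called lower as well. The part of either in the Hox result was not tested, and line, library set, and muscle fiber content cannot be told apart.

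Among the members higher in F339 ROV and F318 LOV were Hoxd10 (log2 fold change 5.78 ± 0.99, SE, adjusted p 0.00532 in edgeR), Hoxd9 (2.92 ± 0.46, 0.00457), and Hoxd8 (2.36 ± 0.47, 0.00798). Hoxd11 had a log2 fold change of 5.33 ± 1.25 and Hoxd13, at 0 in libraries 1 to 7, was at least 42.8-fold higher. Both were called, but the filter had let them in by the lines where they were high. Hoxa10 (0.98 ± 0.27, adjusted p 0.0232 in edgeR) also rose. Hoxb7 (2.02 ± 0.68, 0.0451) and Hoxc13 (5.66 ± 1.92, 0.0465) were called as well, but Hoxc13 was high in F318 LOV alone. Without F318 LOV its log2 fold change was −5.30 with an adjusted p of 0.309 in edgeR. The members that fell were Hoxc11 (−5.11 ± 0.57, adjusted p 0.00374 in edgeR) and Hoxa13 (−3.38 ± 0.61, 0.00604). Both had passed the filter only with the lines of libraries 1 to 7, where they were high. Only Hoxa13, Hoxc11, Hoxd9, and Hoxd10 were called whichever single ovary line was left out. The calls of Hoxd11 and Hoxd13 were lost without F318 LOV, and Hoxd8 without F339 ROV (adjusted p 0.0566). The count over all genes was 4357 without F339 ROV and 2749 without F318 LOV.

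The lines were also compared by the distance between their Hox profiles, the Euclidean distance on log2(CPM + 1) over the 38 members. The 4 pairs of lines from 1 mouse were 7.75 apart on average and the 51 other pairs 9.20. The 2 lines of F364 lay 3.87 apart and those of F326 6.38, while those of F319 lay 9.32 and those of F318 11.4 apart. The last 2 pairs have 1 line in each library set. Pairs within libraries 1 to 7 were 5.88 apart on average, pairs within libraries 8 to 11 10.2, and pairs across the sets 11.3. The closest pair of all came from different mice, F326 ROV and the peritoneal F361 line, at 2.75. The 2 uterus lines were nearest to each other, at 6.69, although over all genes the nearest line to both was F318 LOV. The nearest line to F339 ROV was F318 LOV, at 10.7.

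Hox proteins bind DNA with cofactors of the TALE class, the Pbx, Meis, and Pknox proteins. All 9 genes of this list were detected, with a sum of 110 CPM in the peritoneal line to 668 CPM in the F319 uterus line. Between uterus and ovary 0 of the 9 were called, with a median log2 fold change of 0.45. Between the ovary lines of libraries 8 and 9 and the others 4 rose and 1 fell, where 40.7% of all genes were called, with a median of 0.90 against −0.01 over all genes. Among those that rose were Meis2 (2.64, adjusted p 0.0269 in edgeR), Pbx3 (1.27, 0.0285), and Pknox1 (0.72, 0.0333), and Pknox2 fell (−0.72, 0.0408). Meis2 was at 67.6 and 120.0 CPM in F339 ROV and F318 LOV against 2.80 to 24.9 CPM in the other ovary lines.

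Polycomb proteins keep Hox genes silent and trithorax proteins keep them active. Of 27 such genes found, 0 were called between uterus and ovary, where the median log2 fold change was 0.30. In the ovary lines of libraries 8 and 9 against the others 12 rose and 3 fell, where 18.6% and 22.1% of all genes did, with a median of 0.72. Among those that rose were Cbx6 (2.23, adjusted p 0.00374 in edgeR), Cbx2 (1.98, 0.0178), and Ezh2 (1.51, 0.00457), the Polycomb methyltransferase. Those that fell were Cbx7 (−3.23, 0.00374), Ezh1 (−1.97, 0.00382), and Ring1 (−0.96, 0.0121). Ezh2 was at 94.9 and 78.0 CPM in F339 ROV and F318 LOV and at 15.4 to 32.8 CPM in the other ovary lines. The C cluster summed to 5.02 CPM in F339 ROV and 140 CPM in F318 LOV. The part of Polycomb and trithorax genes in the Hox levels was not tested.

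Among the noncoding genes of the Hox clusters 18 of the 29 listed were found, and their sum was 7.22 to 23.5 CPM. None of the 11 tested was called between uterus and ovary, where 0.0% of all genes were. Both uterus lines lay above every ovary line for Hotair, of the C cluster, Hoxa11os, and Hoxb3os, where 5.04% of all genes tested did. Hotair was at 1.85 and 1.21 CPM in the lines from uterus and at 0.0 to 0.634 CPM in the ovary lines. Cdx1 and Evx1, the members found of a list of Cdx genes, which activate Hox clusters in the embryo, and Evx genes, their neighbors, summed to 0.0 to 0.380 CPM.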

How the data were processed

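Poly(A) RNA of 11 cell lines was sequenced as paired-end, directional libraries, 1 per line. The authors aligned reads to GRCm38 (mm10) with RNA STAR, removed duplicates with SAMtools RmDup, and obtained per-gene counts from featureCounts. The deposited values are these raw counts, not normalized. Versions and the strand setting are not given in the sources used here. Organ was taken from the titles and library numbers from the descriptions. With 1 library per line, p-values measure the spread between lines, some of which share a mouse. Totals were 13580525 to 27044598 counts.

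From the counts, CPM and CPM per kilobase of exons (GENCODE M21, GRCm38) were computed. The 3 comparisons were fitted over all genes with edgeR 4.0.16 (quasi-likelihood test, TMM factors, filterByExpr, Benjamini-Hochberg adjusted p under 0.05) in R 4.3.3, with DESeq2 1.42.0 as an alternative, and the fit was tested on simulated data. The members and gene lists were chosen with earlier results of these data known. Named genes were the most 5′ active member of each cluster and line, the 5 largest rises and falls between uterus and ovary, members whose groups did not overlap, and members called in any comparison. Further members were named to complete each cluster. Alternatives changed the normalization, tool, filter on low counts, lines fitted, library set, muscle fiber genes, activity threshold, scale, and pseudocount. Promoters came from RefSeq (GRCm38.p6). Values of 1 member and 1 cofactor gene are not reported here.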

Additional observations from a re-analysis of the deposited data

Results flagged for a closer look

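In groups of 4 to 10 lines, a line was singled out when its gap to the nearest other line, as a share of the range of the group, passed Dixon's 95% critical value. This was done for 45 sets of values over the 7 ovary lines, and 9 passed. Chance singles out about 1 in 20 only where sets are independent and values normally distributed. Here the sets overlap, since the C cluster sum includes Hoxc4, Hoxc9, and Hoxc10, so no excess over chance can be read from this count. F339 ROV was the lowest ovary line for Hoxc4 (gap 0.671 of the range), Hoxc9 (0.914), Hoxc10 (0.831), and the sum of the C cluster (0.857). F318 LOV was the highest ovary line for Hoxa11 (0.627), Hoxc12 (0.821), and Hoxc13 (0.816). F319 ROV was the highest ovary line for Hoxa4 (0.572), and F364 ROV for Hoxb1 (1.0), which rested on 2 counts.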

How the results depend on the processing

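Between uterus and ovary, DESeq2 called 1315 of 18122 genes and 2 of 34 members. The test without a filter on low counts called 2 of 27829 genes and 0 of 38 members. Within libraries 8 to 11, DESeq2 called 138 of 16036 genes and 4 of 35 members. There the test without a filter called 604 of 25296 genes (198 higher, 406 lower) and 9 of 37 members. The other alternatives called 0 genes in both. Leaving out 1 line gave 0 to 1 genes between uterus and ovary, the 1 without the F333 uterus line, and 2749 to 7205 genes between the ovary lines, lowest without F318 LOV. Each lone line in a group was then assumed to vary like the others. The sign of 3 genes, chosen by the naming rule, turned with the line left out: Hoxc12 ranged from −1.52 to 2.69 between uterus and ovary and from −3.09 to 4.23 within libraries 8 to 11, where Hoxc13 ranged from −0.61 to 12.03 and Hoxc8 from −1.50 to 3.67. Between the ovary lines, Hoxc13 ranged from −5.30 to 6.68, and DESeq2 did not call it (adjusted p 0.156). DESeq2 and the test without a filter moved the median of all genes between uterus and ovary from −0.05 to −0.32 and −0.25, and between the ovary lines from −0.01 to −0.19 and −0.13. The cause of these changes was not tested. The median number of active members was 26 at 1 CPM, 16 at 5 CPM, and 20 at 1 CPM per kilobase, and the most 5′ active gene was the same in 37 of 44 pairs of line and cluster at 0.5 CPM, 27 at 5 CPM, 38 per kilobase, and 42 without muscle fiber genes. On groups 10 to 13 in place of 9 to 13 the share of Hox counts was 40.2% (ovary median, from 66.8%) and 48.3% (uterus mean, from 64.1%). With mouse as a replicate block, chosen after seeing the data, again 0 genes were called between uterus and ovary. In that fit only mouse F319 carries the organ difference and 2 residual degrees of freedom remain. Under it 4 members turned sign, Hoxd10 (2.20), Hoxd9 (0.86), Hoxb9 (0.21), and Hoxb8 (1.04), and Hoxd13, at 0 in both F319 lines, had no value. Genes under 3 counts were not detectable at this depth.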

Other observations

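Other genes that act on position or on the Hox clusters were described by the same comparisons. Of 18 retinoic acid genes, which carry the signal that opens the 3′ end of the Hox clusters in the embryo, 16 were tested between uterus and ovary and 0 were called, with a median log2 fold change of 0.36 against −0.05 over all genes. Rxra, a retinoid receptor, lay below every ovary line in both uterus lines, at 57.7 and 35.6 CPM against 104 to 348 CPM. The highest log2 fold change was that of Crabp2, a carrier of retinoic acid, at 2.42 ± 2.06 (SE), with 63.1 and 0.557 CPM in the lines from uterus and 0.127 to 39.4 CPM in the ovary lines. Between the ovary lines of libraries 8 and 9 and the others, where 18.6% of all genes were called higher and 22.1% lower, 1 of 15 tested genes rose (Rarg, log2 fold change 2.11, adjusted p 0.0151 in edgeR) and 6 fell, among them Rxrg (−6.19, 0.00381) and Rxra (−1.79, 0.00532).

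Of 38 transcription factors of position and of the reproductive tract, 27 were tested between uterus and ovary and 0 were called, with a median log2 fold change of −1.28. Emx2, a factor of the urogenital tract, had the highest log2 fold change, 1.91 ± 0.68 (SE), at 203 and 30.2 CPM in the lines from uterus and 8.45 to 60.9 CPM in the ovary lines. Tbx2 lay below every ovary line in both uterus lines, at 1.22 and 1.07 CPM against 1.33 to 17.2 CPM. Between the same ovary lines 3 of 26 tested rose (Emx2, Osr1, and Nr2f2) and 10 fell in libraries 8 and 9, against the same shares of all genes. Nr2f2, a factor of Müllerian stroma, was at 152 and 175 CPM in F339 ROV and F318 LOV and at 16.9 to 69.3 CPM in the others (log2 fold change 2.08, adjusted p 0.00968 in edgeR). Pitx1, a factor of the hindlimb, was at 0.0 CPM in both and at 0.127 to 2.87 CPM in the others.

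Markers of other cell types differed between lines as well. Summed over each list, granulosa markers lay at 1.52 to 43.6 CPM, mesothelial markers at 0.510 to 691 CPM, macrophage markers at 4.32 to 25.3 CPM, and endothelial markers at 2.18 to 279 CPM. Smooth muscle markers did not move together. Des, which adult muscle fibers also express, ranged from 4340 to 8703 CPM over libraries 1 to 7 but from 51.7 to 561 CPM over libraries 8 to 11. Acta2 ranged from 62.6 to 2152 CPM over the first set but from 2636 to 3614 CPM over the second. The mesothelial sum was highest in F319 ROV. None of these lists held a gene called between uterus and ovary. Their part in the Hox levels was not tested.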
